A study of Mus musculus with 6 samples.

Results

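The genes described here are those on mouse chromosome 4 whose start lies between 135 and 140 Mb (GRCm38) and that had 10 or more read counts in at least 2 libraries. Of the 55536 genes in the count table, 153 started in this window, 73 of them had too few counts, 2 were left out by name, and 78 remained as members. Of the 73 genes with too few counts, 29 had no read in any library. The members were 68 protein-coding genes, 6 lincRNAs, 2 antisense RNAs and 2 processed pseudogenes.

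The window lies before the Padi gene cluster on the same chromosome: the members started between 0.95 and 5.69 Mb before the start of Padi2. The products of Padi genes are protein-modifying enzymes: they turn arginines in histones and in many other proteins into citrulline. The members themselves share a place on the chromosome and not a pathway. They include chromatin and transcription factors, RNA-binding proteins, proteins of cilia and of the cytoskeleton, ubiquitin enzymes, secreted phospholipases and the 3 chains of complement C1q. The testis holds germ cells at every stage from stem cell to sperm and expresses more genes than most tissues, long noncoding RNAs among them.

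RNA was taken from the testes of 4-month-old mice of 3 genotypes, with 2 mice and 2 libraries for each. WT mice were of the inbred strain FVB/NJ. P2KO mice were homozygous for a gene-trap allele of Padi2 in which part of exon 1 is replaced by LacZ and neomycin sequences. DKO mice carried the same Padi2 allele and, in addition, a short frame-shifting deletion in exon 1 of Padi4, made by CRISPR/Cas9 in Padi2-null embryos. All 3 genotypes had the FVB/NJ background, neither knockout was limited to a cell type, and the DKO strain was a single line established from those embryos by back breeding to P2KO mice. In the account of each gene below, the libraries are given in the order WT 1, WT 2, P2KO 1, P2KO 2, DKO 1 and DKO 2. The number is that of the sample title, and the labels do not say whether it pairs mice across genotypes.

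Each library held between 21939393 and 27306679 counts on genes, of which 0.513% to 0.596% lay on the members. Spermatid markers (8 genes, among them protamines and transition proteins) summed to between 342000 and 408000 normalised reads per library, Sertoli cell markers to between 5170 and 6250, and Leydig cell markers to between 15900 and 20900, so that the libraries held the defining transcripts of testis, while epididymal markers reached at most 13.9 and Lcn5 was at 0. Padi4 had 20, 43, 11, 10, 4 and 4 counts, and was lower in DKO than in WT by edgeR's quasi-likelihood test (log2 fold change -2.94 ± 0.51 SE, adjusted p = 2.78e-04). Padi4 was not called in P2KO against WT (-1.63 ± 0.42 SE, adjusted p = 0.0959) or in DKO against P2KO (-1.31 ± 0.63 SE, adjusted p = 0.404). Padi2 had 47, 64, 100, 55, 59 and 83 counts and did not fall in either knockout (log2 fold change against WT of 0.40 ± 0.24 SE in P2KO and 0.35 ± 0.24 SE in DKO). The paper reports that RT-PCR of salivary gland found no Padi2 transcript in either knockout and that spleen lacked the PAD2 protein. Counts of Padi2 here come from all its exons, the trap replaces part of 1 of them, and reads per exon were not looked at. The count thus does not bear out the P2KO label, and why it did not fall was not tested. P2KO and DKO below mean the libraries that carry these labels. In whole testis, fewer cells of a type and less RNA per cell cannot be told apart.

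The first question was whether the genes of this neighbourhood were expressed at other levels in each knockout than in WT. For each gene, edgeR's quasi-likelihood test was fitted over all 6 libraries, p-values were adjusted by Benjamini-Hochberg over all 20744 genes tested, and a gene was called where its adjusted p was under 0.05. The test covered 77 of the 78 members. Lactbl1, a lactamase-like gene with 3, 11, 11, 6, 9 and 5 counts, was too low to be tested. Normalised read counts are counts scaled to a common effective library size by TMM, and they are the levels given below. No member had passed the count threshold through 1 genotype alone, but Rpl31-ps10 and 4933427I22Rik had fewer than 10 counts in both WT libraries.

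In P2KO, 13 of the 77 members tested (16.9%) were called against WT, 11 of them higher and 2 lower, where 0.337% of all genes tested were called, 0.198% higher and 0.14% lower. In DKO, 28 members (36.4%) were called against WT, 20 higher and 8 lower, where 3.22% of all genes tested were called, 2.06% higher and 1.16% lower. Between DKO and P2KO directly, 10 members (13%) were called, 7 higher in DKO and 3 lower, beside 1.21% of all genes, 0.607% higher and 0.598% lower. These 10 were Clic4, Myom3, Eloa, E2f2, Luzp1, 1700013G24Rik and Hspg2, which were higher in DKO, and Pnrc2, Hnrnpr and Gm13003, which were lower. Without P2KO 2 this last count was 3, without DKO 1 it was 5 and without DKO 2 it was 3. Without P2KO 2, the difference between DKO and P2KO fell from 1.28 to 0.62 for E2f2 (adjusted p = 0.0687) and from 1.07 to 0.50 for Myom3 (0.474), while without P2KO 1 it was 2.80 and 2.25. By DESeq2 neither was called (0.787 and 0.766). E2f2 was also not called without DKO 2 (0.222), nor Myom3 without DKO 1 (0.307) or DKO 2 (0.165). The median log2 fold change of the members was close to 0 in each comparison (0.03, 0.05 and 0.03), as it was for all genes, and the median size of the change without regard to sign was 0.18 in P2KO and 0.32 in DKO against WT, beside 0.11 and 0.13 for all genes. Both comparisons with WT use the same 2 WT libraries. Where leaving out 1 library lowered the count of members between DKO and P2KO, the count over all genes fell too.

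The summed level of the Leydig cell markers was 16300 and 15900 in WT, 18700 and 16700 in P2KO and 20900 and 17100 in DKO, so that every knockout library was above both WT libraries, and 4 of the 6 markers were called in DKO against WT and 0 in P2KO. The spermatid markers summed to 398000 to 408000 in WT, 342000 to 378000 in P2KO and 371000 to 373000 in DKO, lower in every knockout library than in WT, and of the 8 markers 2 were called in DKO against WT and 1 in P2KO. Of the 6 adipocyte markers, whose sum was 285 to 306 in WT and 255 to 269 in the knockouts, 1 was called in P2KO against WT, and in DKO against P2KO 1 marker each of the spermatid, adipocyte and Sertoli cell lists was called. Their part in the members' changes was not tested.

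**Figure D1:**
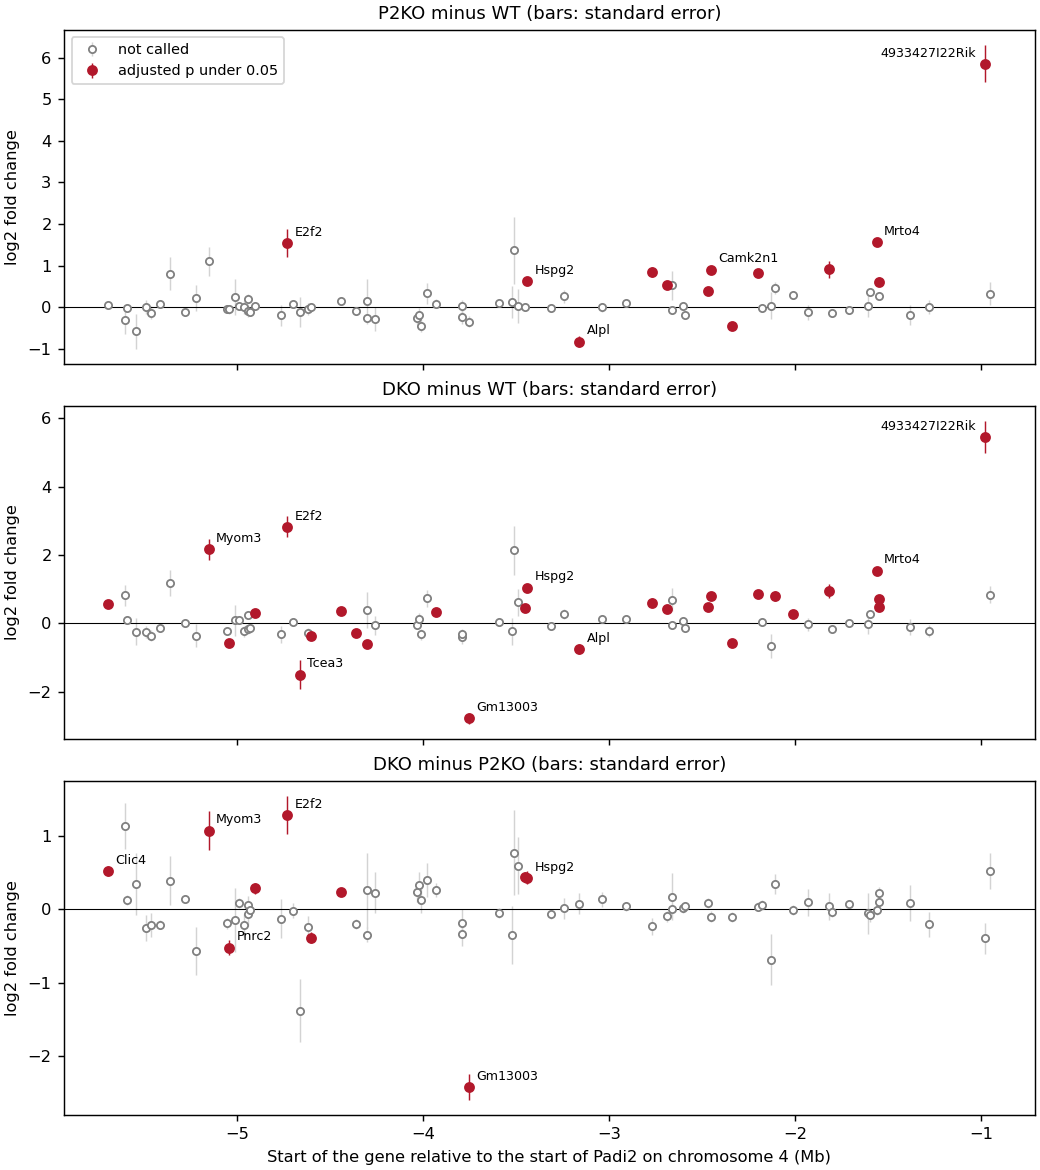
Log2 fold change of each of the 77 members tested (y axis, bars 1 standard error) against the start of the gene relative to the start of Padi2 (x axis, Mb), for P2KO against WT, DKO against WT and DKO against P2KO, with called members filled. The 13 calls in P2KO lie mostly to the right, those in DKO run across the window, and the 10 calls between DKO and P2KO all lie to the left.

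The calls were not spread alike along the window. The window was divided at its midpoint of 137.5 Mb after the values had been seen, which left 45 tested members before it and 32 after it. Before the midpoint, 2 members were called in P2KO against WT, 14 in DKO against WT and 10 between DKO and P2KO. After it, 11 were called in P2KO against WT, 14 in DKO against WT and 0 between DKO and P2KO by edgeR. Per Mb, the members called in P2KO against WT numbered 0 of 19 from 135 to 136 Mb, 1 of 17 from 136 to 137 Mb, 2 of 14 from 137 to 138 Mb, 6 of 15 from 138 to 139 Mb and 4 of 12 from 139 to 140 Mb. The median size of the log2 difference between DKO and P2KO was 0.22, 0.26 and 0.26 in the 3 windows up to 138 Mb and 0.09 and 0.08 in the last 2. These counts describe the members along the chromosome and were not tested against each other.

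Among the members after the midpoint, the largest changes in each knockout against WT were those of 4933427I22Rik and Mrto4. 4933427I22Rik, a lincRNA gene on the minus strand (chromosome 4, 139926111 to 139943519), was almost silent in WT and present in every knockout library. Its counts were 0, 3, 107, 89, 77 and 66. All 4 knockout libraries thus lay far above both WT libraries. The ratio to WT was 62.2 in P2KO (95% counting interval 21.0 to 304) and 47.2 in DKO (15.8 to 232), with intervals that cover counting error only, since the WT libraries together held 3 reads. The call stood at adjusted p = 1.14e-11 in P2KO and 1.81e-10 in DKO. Gm13028, on the other strand, overlaps its span, and which of STAR's strand counts were deposited is not given in the sources used here.

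Mrto4, a factor of ribosome assembly that acts on the large subunit, also rose in both knockouts. Its normalised read counts were 696, 639, 2028, 1884, 1954 and 1926. The 4 knockout libraries were close to each other and about equally far above WT, and the groups did not overlap. The log2 fold change was 1.55 ± 0.075 SE in P2KO (adjusted p = 3.96e-17) and 1.54 ± 0.075 SE in DKO (adjusted p = 2.72e-17), and DKO differed from P2KO by -0.01 ± 0.068 SE. Both processed copies of Mrto4 on another chromosome, Mrto4-ps1 and Mrto4-ps2, held at most 3 counts in any library. Mrto4 lies on the minus strand (139347435 to 139352576), and its annotated start is separated by 10 bases from that of Emc1 on the plus strand (139352587 to 139378730), a core subunit of the endoplasmic reticulum membrane protein complex that inserts proteins into the membrane. The promoter between them is shown because Mrto4 and Emc1 were called in both knockouts, though Ubr4, another member on the plus strand that was called in DKO and not in P2KO, has its annotated start in the same window, at 139352609. It is printed 5′ to 3′ on the plus strand from RefSeq (GRCm38.p6, chr4:139352337-139352636), with the bases between the starts in capitals.
Emc1 and Mrto4: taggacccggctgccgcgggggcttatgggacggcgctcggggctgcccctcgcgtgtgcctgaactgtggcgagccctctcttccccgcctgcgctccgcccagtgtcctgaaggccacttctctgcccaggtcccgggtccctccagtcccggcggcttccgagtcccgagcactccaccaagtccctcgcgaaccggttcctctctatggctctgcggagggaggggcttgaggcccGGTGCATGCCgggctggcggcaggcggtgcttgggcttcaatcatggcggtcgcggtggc

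Emc1 itself had normalised read counts of 303, 356, 531, 481, 532 and 556. Each knockout library was above both WT libraries, by a smaller margin than for Mrto4. The log2 fold change was 0.62 ± 0.11 SE in P2KO (adjusted p = 7.21e-04) and 0.72 ± 0.10 SE in DKO (adjusted p = 1.74e-05). Exons of Emc1 overlap those of Ubr4 on the same strand, so that reads shared by both may be missing from both counts. Ubr4, a very large ubiquitin ligase that recognises destabilising N-terminal residues, had 16731, 12258, 15821, 18884, 19528 and 20968 normalised reads. Both DKO libraries were above both WT libraries (log2 fold change 0.48 ± 0.083 SE, adjusted p = 1.99e-04), whereas P2KO 1 fell between the WT libraries and P2KO 2 above them, and P2KO was not called (0.26 ± 0.082 SE, adjusted p = 0.256). The change in DKO was 0.27 without WT 2 and 0.72 without WT 1, and by DESeq2 it was not called (adjusted p = 0.313).

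Among genes of the cytoskeleton, cilia and sperm, 2 of the 10 tested were called in P2KO against WT and 3 in DKO, all higher. Ubxn10, a cofactor of the AAA ATPase VCP in the building of cilia, had 5227, 4930, 8895, 8986, 9218 and 9098 normalised reads. It stood apart cleanly, with both knockouts nearly level (log2 fold change 0.82 ± 0.057 SE, adjusted p = 1.18e-12 in P2KO and 0.85 ± 0.057 SE, adjusted p = 2.09e-13 in DKO). Its span overlaps that of Pla2g2c on the other strand, which was not called and had log2 fold changes of -0.03 in P2KO and 0.04 in DKO. Camk2n1, which is counted in this list, is known rather as an inhibitor of the kinase CaMKII. It had 1116, 944, 1832, 2006, 1746 and 1824 normalised reads. Here too the 4 knockout libraries lay together above WT (log2 fold change 0.90 ± 0.077 SE, adjusted p = 2.49e-10 in P2KO and 0.80 ± 0.077 SE, adjusted p = 2.95e-09 in DKO).

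The third gene of that list, Clic4, a chloride intracellular channel protein, was the member that starts first in the window and had a different pattern. Its normalised reads were 1793, 1756, 1864, 1795, 2580 and 2658. Only the DKO libraries stood apart (log2 fold change 0.56 ± 0.065 SE against WT, adjusted p = 1.97e-07, and 0.52 ± 0.065 SE against P2KO, adjusted p = 1.87e-06), while P2KO was within 0.05 ± 0.066 SE of WT. Kif17, a kinesin motor, had the highest normalised counts of the list (12987 to 15016) and was not called.

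Of the 10 genes for chromatin and transcription, 2 were called in P2KO, both higher, and 7 in DKO, 5 higher and 2 lower, with E2f2, described below, among the higher ones of both. Luzp1, which is counted in this list and among the 5, is known rather from actin filaments and the base of cilia. Hp1bp3, a nuclear protein that binds heterochromatin protein 1 and resembles linker histones, had 768, 779, 1092, 1142, 1042 and 1045 normalised reads. It was higher in every knockout library (log2 fold change 0.53 ± 0.077 SE, adjusted p = 5.50e-05 in P2KO and 0.43 ± 0.077 SE, adjusted p = 3.84e-04 in DKO). Kdm1a, the demethylase LSD1 that removes methyl groups from lysine 4 of histone H3, had 3700, 3552, 3191, 3650, 3088 and 2865 normalised reads. It was lower in DKO (log2 fold change -0.28 ± 0.066 SE, adjusted p = 0.00854), and the call was lost without DKO 2 (adjusted p = 0.263). Of the P2KO libraries, P2KO 2 lay at the WT level and P2KO 1 nearer to DKO. Luzp1, a leucine zipper protein, shares part of its span with Kdm1a on the opposite strand and moved the other way (9841, 8959, 10230, 10516, 12227 and 12101 normalised reads, log2 fold change 0.37 ± 0.057 SE in DKO, adjusted p = 3.67e-05). Its call against P2KO was lost when any 1 of the 4 knockout libraries was left out (adjusted p of 0.114 to 0.344).

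Eloa, the active subunit of the elongation factor elongin, was higher in DKO than in WT (log2 fold change 0.31 ± 0.070 SE, adjusted p = 0.00617) and than in P2KO (0.28 ± 0.069 SE, adjusted p = 0.0282). The call against WT was lost without WT 2 (adjusted p = 0.0667) and without DKO 1 (0.169), and that against P2KO without P2KO 1, P2KO 2, DKO 1 or DKO 2 (0.0929 to 0.341) and by DESeq2 (0.0549). Zbtb40, a zinc finger protein with a BTB domain, passed the threshold only narrowly in DKO (0.34 ± 0.10 SE, adjusted p = 0.0489). Tcea3, a tissue-restricted elongation factor of the TFIIS family, had 19, 32, 24, 25, 10 and 8 counts and was lower in DKO (log2 fold change -1.50 ± 0.43 SE, adjusted p = 0.0452), with P2KO at the WT level. Zbtb40 was not called without WT 2, P2KO 1, DKO 1 or DKO 2, with adjusted p from 0.0501 to 0.612 and a log2 fold change of 0.21 without WT 2, and Tcea3 was not called without WT 2, P2KO 1, P2KO 2, DKO 1 or DKO 2, with adjusted p from 0.0567 to 0.437.

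Of the 6 members for RNA processing and translation, Mrto4 was called in P2KO, and Mrto4, Hnrnpr and Pnrc2 in DKO. Hnrnpr, an RNA-binding protein of the hnRNP family, had 1956, 1739, 1718, 1998, 1415 and 1425 normalised reads and was lower in DKO (log2 fold change -0.38 ± 0.075 SE, adjusted p = 0.00146). Pnrc2, which joins decapping enzymes to the nonsense-mediated decay machinery, had 513, 510, 446, 542, 348 and 336 and was lower in DKO (-0.58 ± 0.11 SE, adjusted p = 4.86e-04). For both, the P2KO libraries overlapped the WT libraries and lay above DKO, and DKO was called against P2KO (adjusted p = 0.00264 for Hnrnpr and 0.00391 for Pnrc2). The calls against P2KO were lost for Hnrnpr without P2KO 2 (adjusted p = 0.217), DKO 1 (0.0794) or DKO 2 (0.0701), and for Pnrc2 without the same libraries (0.206, 0.0571 and 0.107). Gm6159, a near-identical copy of Hnrnpr on another chromosome, held between 2 and 11 counts. Eif4g3, a scaffold of translation initiation that is needed for spermatogenesis, had the highest normalised counts of the list (13001 to 15608) and was not called.

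Of the 11 members for receptors and signalling at the membrane, 3 were called in each knockout, Hspg2, Alpl and Nbl1. The receptors Ephb2, Epha8, Ifnlr1 and Cnr2 were not called in either. Hspg2 encodes perlecan, a heparan sulphate proteoglycan of basement membranes, and had 444, 387, 653, 618, 828 and 882 normalised reads. The genotypes formed 3 separate levels with P2KO in the middle, and all 3 differences were called: 0.62 ± 0.094 SE for P2KO against WT (adjusted p = 1.15e-04), 1.04 ± 0.092 SE for DKO against WT (adjusted p = 3.00e-10) and 0.43 ± 0.088 SE for DKO against P2KO (adjusted p = 0.00496). The last difference was no longer called without P2KO 2 (adjusted p = 0.0906) or without DKO 2 (0.174). Hspg2 starts at 137468769, just before the midpoint.

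Alpl, the tissue-nonspecific alkaline phosphatase, had 291, 288, 149, 178, 191 and 152 normalised reads. It was the member with the largest fall that both knockouts showed (log2 fold change -0.83 ± 0.14 SE, adjusted p = 5.68e-04 in P2KO and -0.75 ± 0.14 SE, adjusted p = 5.38e-04 in DKO), with no overlap between knockouts and WT. The call in P2KO was lost narrowly without P2KO 1 (adjusted p = 0.0525) and that in DKO without DKO 2 (0.0626). Nbl1, a secreted antagonist of bone morphogenetic proteins, was lower in level but rose in both knockouts, from 52.9 and 47.2 in WT to 90.5 and 97.9 in P2KO and 101 and 92.2 in DKO. Its call in P2KO (log2 fold change 0.91 ± 0.21 SE, adjusted p = 0.0328) was lost when WT 2 or any single knockout library was left out, with adjusted p of up to 0.309, which was reached without P2KO 2. Its call in DKO (0.95 ± 0.21 SE, adjusted p = 0.00426) was lost without WT 2 (adjusted p = 0.0685) and without DKO 1 (0.0814).

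Of the 5 members for ubiquitin and protein turnover, Mul1 was called in P2KO, and Mul1, Otud3 and Ubr4 in DKO, all higher. Mul1, a ubiquitin ligase of the outer mitochondrial membrane, had 1877, 1750, 2335, 2401, 2626 and 2403 normalised reads (log2 fold change 0.39 ± 0.067 SE, adjusted p = 0.00102 in P2KO and 0.47 ± 0.067 SE, adjusted p = 1.11e-05 in DKO), and its call in P2KO was lost narrowly without P2KO 2 (adjusted p = 0.0517). Otud3, a deubiquitinase, rose less, by 0.28 ± 0.070 SE in DKO (adjusted p = 0.0136), and in P2KO its change of 0.29 ± 0.070 SE was just outside the threshold (adjusted p = 0.0553). The call of Otud3 in DKO was lost without WT 2 (adjusted p = 0.281), DKO 1 (0.198) or DKO 2 (0.101).

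Of the 9 members for mitochondria and metabolism, 1 was called in each knockout, Vwa5b1, which was lower and is known as a protein with a von Willebrand factor A domain and not as a metabolic enzyme. It had 3160, 2905, 2296, 2097, 2128 and 1961 normalised reads (log2 fold change -0.46 ± 0.068 SE, adjusted p = 5.50e-05 in P2KO and -0.57 ± 0.068 SE, adjusted p = 4.08e-07 in DKO). Pink1, a kinase that marks damaged mitochondria, had the highest normalised counts of this list (4576 to 5445) and was not called. Of the 4 members for the endoplasmic reticulum and glycosylation, Emc1 alone was called. Ddost, a subunit of the oligosaccharyl transferase, had between 2489 and 2848 normalised reads, with log2 fold changes of 0.04 in P2KO and 0.06 in DKO.

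Of the 3 secreted phospholipases A2, Pla2g5 was called in DKO. Its normalised reads were 140, 134, 189, 190, 235 and 245, again with P2KO between the other genotypes (log2 fold change 0.81 ± 0.14 SE in DKO, adjusted p = 2.36e-04, and 0.47 ± 0.14 SE in P2KO, adjusted p = 0.231). The 3 chains of C1q, the recognition molecule of the classical complement pathway that macrophages make, were not called in either knockout, with log2 fold changes of -0.27, -0.20 and -0.44 in P2KO and -0.04, 0.13 and -0.32 in DKO for C1qb, C1qc and C1qa.

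Of the 17 members in none of these lists, several of which have no known function, 6 were called in DKO, 4933427I22Rik among them. Gm13003, a lincRNA gene on the minus strand (137159082 to 137165066), had the largest fall of all members. Its normalised reads were 460, 499, 296, 461, 65.1 and 75.3, so that both DKO libraries were several-fold below the others. The log2 fold change in DKO was -2.78 ± 0.17 SE against WT (adjusted p = 1.35e-14) and -2.42 ± 0.17 SE against P2KO (adjusted p = 2.16e-12). 1700095J12Rik, an antisense gene that lies within the span of Eif4g3, had 184, 194, 333, 347, 306 and 271 and was higher in both knockouts (log2 fold change 0.84 ± 0.12 SE, adjusted p = 5.50e-05 in P2KO and 0.61 ± 0.13 SE, adjusted p = 0.00216 in DKO, lost without DKO 1 with adjusted p = 0.0940). Without the strand of the counts, its reads cannot be told apart from those of unspliced Eif4g3.

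1700013G24Rik, a small protein-coding gene, had the highest level of all members per kb of exon (8500 normalised reads per kb, where the median of the 78 members was 103.5). It was higher in DKO than in WT (8001, 7838, 8761, 7210, 11054 and 10553 normalised reads, log2 fold change 0.45 ± 0.065 SE, adjusted p = 1.59e-05) and than in P2KO (0.44 ± 0.065 SE, adjusted p = 4.68e-05). Tex46, a testis-expressed gene, had 675, 701, 507, 643, 438 and 463 and was lower in DKO (-0.61 ± 0.10 SE, adjusted p = 1.10e-04). Myom3, the last of the 6, is described with the P2KO libraries below.

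The 49 tested members that were not called in DKO against WT were not called in P2KO against WT either. Their log2 fold changes ran from -0.58 (Ncmap) to 1.36 (Rpl31-ps10) in P2KO and from -0.65 (Pla2g2d) to 2.13 (Rpl31-ps10) in DKO, with medians of 0.00 and -0.03. Rpl31-ps10, a processed copy of a ribosomal protein gene, had only 2, 3, 11, 3, 13 and 10 counts. Just outside the count threshold lay 2700016F22Rik (9, 20, 6, 8, 4 and 9 counts), Gm16287 (4, 5, 8, 3, 5 and 7) and 2310026L22Rik (9, 7, 0, 1, 1 and 0), and just inside it Lactbl1, Rpl31-ps10 and Gm12986 (10, 8, 13, 8, 10 and 14). At the edges of the window, the last gene before it, Syf2, had a log2 fold change of -0.06 in DKO where Clic4, the first inside, had 0.56, and the last inside, Klhdc7a, had 0.84 (adjusted p = 0.0695) where the next gene, Igsf21, had 0.38.

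The second question was where each P2KO library lay between the levels of WT and DKO. For the 28 members called in DKO against WT, the log2 CPM of each P2KO library was placed on a scale on which the WT mean is 0 and the DKO mean is 1, and it was taken as on the WT side below 0.33, on the DKO side above 0.67 and between otherwise. The members had been chosen on the contrast of DKO and WT, in a fit whose estimate of spread also used the P2KO pair (26 members were called with the 2 genotypes alone, 26 without P2KO 1 and 27 without P2KO 2), and the placement has no test. P2KO 1 was on the DKO side for 15 members and on the WT side for 9. P2KO 2 was on the DKO side for 13 and on the WT side for 11.

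**Figure D2:**
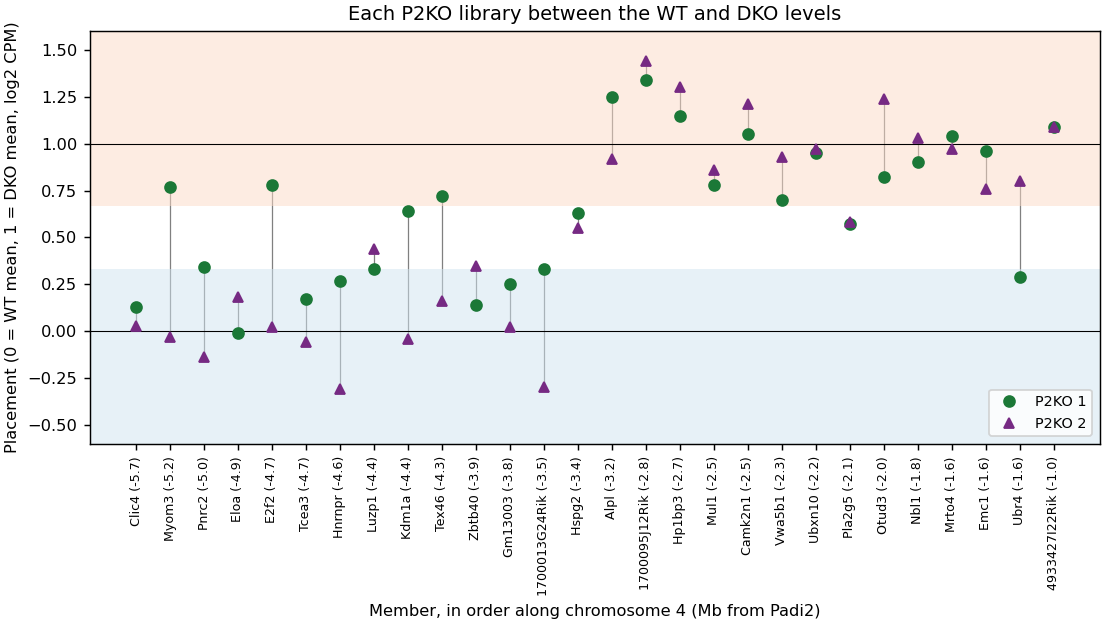
Place of P2KO 1 (circles) and P2KO 2 (triangles) between the WT mean (0) and the DKO mean (1) on the log2 CPM scale (y axis), for the 28 members called in DKO against WT in their order along chromosome 4 (x axis, with Mb from the start of Padi2 in brackets). From Alpl onward both libraries lie near 1 for most members, while to the left P2KO 2 ranges from -0.31 to 0.55 and P2KO 1 from -0.01 to 0.78.

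After the midpoint the P2KO libraries were alike in this measure. Of the 14 members there, P2KO 1 was on the DKO side for 12 and P2KO 2 for 13, with median places of 0.96 and 0.97. For 12 of the 28 members both libraries were on the DKO side: Alpl, 1700095J12Rik, Hp1bp3, Mul1, Camk2n1, Vwa5b1, Ubxn10, Otud3, Nbl1, Mrto4, Emc1 and 4933427I22Rik. All 12 start after the midpoint. Pla2g5 was between for both libraries (0.57 and 0.58), and Ubr4 was on the WT side for P2KO 1 (0.29) and on the DKO side for P2KO 2 (0.80).

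Before the midpoint the libraries parted for some members and lay on the same side for others. Of the 14 members there, P2KO 2 was on the WT side for 11, between for 3 and on the DKO side for 0, with a median place of 0.02. P2KO 1 was on the WT side for 8, between for 3 and on the DKO side for 3, with a median place of 0.33. Both libraries were on the WT side for 6 members (Clic4, Eloa, Tcea3, Hnrnpr, Gm13003 and 1700013G24Rik). The 3 members for which P2KO 1 was on the DKO side and P2KO 2 on the WT side were Myom3 (0.77 and -0.03), E2f2 (0.78 and 0.02) and Tex46 (0.72 and 0.16). For Tex46 the log2 difference of P2KO 1 over P2KO 2 was -0.34, and it is not among the members called between them below. Hspg2 was between for both (0.63 and 0.55).

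The same was asked with a test by fitting each P2KO library as a group of its own, so that the spread came from the WT and DKO pairs with 2 residual degrees of freedom and the single library was assumed to vary as they did. This compares libraries and not genotypes. Against WT, 13 members were called in P2KO 1 (background 0.251% of all genes) and 9 in P2KO 2 (background 0.28%). Before the midpoint these were 4 members in P2KO 1 (E2f2, Myom3, Gm13003 and Hspg2) and 1 in P2KO 2 (Hspg2). After it they were 9 in P2KO 1 and 8 in P2KO 2. The count for P2KO 2 rose without WT 1, and it rose by a larger factor over all genes than among the members. By DESeq2 the count for P2KO 1 fell, among the members and over all genes. Before the midpoint, DESeq2 kept the call of E2f2 in P2KO 1 and lost those of Myom3 (adjusted p = 0.316), Gm13003 (1) and Hspg2 (0.0909), and it lost that of Hspg2 in P2KO 2 (0.676). Hspg2 in P2KO 2 was not called without WT 2 (adjusted p = 0.0876).

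Against DKO, 2 members were called in P2KO 1 (Clic4 and Gm13003, background 0.554%) and 10 in P2KO 2 (background 0.733%), and all of them start before the midpoint. The count for P2KO 1 was less certain, since it rose when either WT 1 or WT 2 was left out, as did the count over all genes. Of the 10 in P2KO 2, 5 were higher and 5 lower than in DKO. By DESeq2 the count was 6, with 2 higher and 4 lower, and Pnrc2 (adjusted p = 0.118), Tex46 (0.464), Hspg2 (0.652) and Gm13001 (0.915) were lost. They were Clic4, Myom3, E2f2, 1700013G24Rik and Hspg2, which were lower, and Pnrc2, Hnrnpr, Tex46, Gm13003 and Gm13001, which were higher. Gm13001, a lincRNA gene just before Gm13003 that overlaps 1700037C06Rik on the same strand and is named here because it completes this count, had 238, 225, 176, 299, 198 and 172 normalised reads (log2 difference of 0.69 ± 0.16 SE for P2KO 2 against DKO, adjusted p = 0.0219, and 0.160 without DKO 2). Tex46 lost the call without DKO 1 (adjusted p = 0.162), and Hspg2 without DKO 1 (0.0731) or DKO 2 (0.183). After the midpoint, edgeR called 0 members between either P2KO library and DKO.

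Between the P2KO libraries themselves, 2 members were called, E2f2 and Myom3, both higher in P2KO 1, where 0.0482% of all genes were called, 0.0241% higher in P2KO 1 and 0.0241% lower. E2f2, a transcription factor of the E2F family that drives genes of the cell cycle, lies on the plus strand (136172394 to 136196057) and had 38, 59, 257, 47, 318 and 373 counts. P2KO 1 was near the DKO libraries and P2KO 2 was within the range of WT. The log2 difference of P2KO 1 over P2KO 2 was 2.18 ± 0.26 SE (adjusted p = 7.53e-06). Against WT, P2KO 1 was higher by 2.21 ± 0.21 SE (adjusted p = 7.52e-09) and P2KO 2 by 0.03 ± 0.29 SE (adjusted p = 0.992). E2f2 was thus called in P2KO as a genotype (log2 fold change 1.54 ± 0.34 SE, adjusted p = 0.0236) through 1 mouse, and without P2KO 1 the change was 0.03 (adjusted p = 0.993). The adjusted p was 0.0771 without DKO 1 and 0.0636 without DKO 2, which enter through the shared estimate of spread. In DKO, both libraries were high (log2 fold change 2.82 ± 0.31 SE against WT, adjusted p = 4.82e-08).

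Myom3, a myomesin of the M-band of striated muscle (plus strand, 135759715 to 135815564), had 22, 29, 94, 23, 130 and 103 counts. As with E2f2, P2KO 1 was near the DKO libraries and P2KO 2 at the WT level. Myom3 starts 5.15 Mb and E2f2 4.73 Mb before the start of Padi2. The log2 difference of P2KO 1 over P2KO 2 was 1.76 ± 0.35 SE (adjusted p = 0.0419), and DKO was higher than WT by 2.17 ± 0.31 SE (adjusted p = 1.11e-05). By DESeq2 the difference between the P2KO libraries was 1.77 for Myom3 and was not called. The difference between DKO and WT was not called by DESeq2 either (2.18, adjusted p = 0.0575). A sum of 8 skeletal muscle genes, chosen after the values of Myom3 had been seen, was 154, 142, 103, 161, 111 and 151 normalised reads. The erythroid markers also set these libraries apart, with a summed level of 137 in P2KO 1 and 461 in P2KO 2, beside 362 and 625 in WT and 349 and 253 in DKO, and 2 of the 4 markers (Hba-a1 and Hbb-bs) were called between the P2KO libraries. Hba-a2 was at 0 in all libraries. Among the 10 genes called between the P2KO libraries were also the mitochondrial ribosomal RNAs mt-Rnr1 and mt-Rnr2, lower in P2KO 1 by log2 differences of -0.68 and -0.82, and the nuclear noncoding RNA Malat1, higher in P2KO 1 by 1.15. The largest of the 10 differences was that of Gm10036 on another chromosome (5.92), which had 1, 3, 81, 1, 142 and 144 counts and so, like E2f2 and Myom3, was high in P2KO 1 and DKO and at the WT level in P2KO 2. C3, the central complement component, had the opposite order, with 63, 78, 70, 145, 213 and 206 counts and a log2 difference of -1.31, and 9230104L09Rik (174, 195, 191, 63, 406 and 306 counts, log2 difference 1.34) was lowest in P2KO 2. The part of these transcripts in the difference was not tested. Malat1 had 2550, 6290, 7920, 2981, 6484 and 7401 counts, so that its WT libraries lay apart as well. Near-identical copies were looked for only for the members, and not for Gm10036.

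The promoters of E2f2 and Myom3 are shown because these were the members that set 1 P2KO mouse apart from the other. Each runs from 250 bases before to 50 bases after the RefSeq start on the plus strand of GRCm38.p6, E2f2 at chr4:136172024-136172323 and Myom3 at chr4:135759465-135759764. The capitals mark the E2F motif TTTGGCGC in the first and a match to the MEF2 consensus in the second.
E2f2: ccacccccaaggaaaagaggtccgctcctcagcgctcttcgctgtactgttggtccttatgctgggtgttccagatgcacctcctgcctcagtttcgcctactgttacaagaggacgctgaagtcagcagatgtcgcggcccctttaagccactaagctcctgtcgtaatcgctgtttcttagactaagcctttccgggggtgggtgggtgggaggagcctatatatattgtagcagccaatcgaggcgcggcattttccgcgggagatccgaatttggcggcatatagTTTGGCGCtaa
Myom3: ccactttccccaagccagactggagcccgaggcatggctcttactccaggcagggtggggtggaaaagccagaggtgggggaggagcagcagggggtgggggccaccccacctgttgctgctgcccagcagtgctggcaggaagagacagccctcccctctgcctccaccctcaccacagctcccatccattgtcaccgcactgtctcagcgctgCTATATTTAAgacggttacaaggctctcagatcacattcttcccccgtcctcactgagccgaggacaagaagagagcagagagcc

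On either strand, TTTGGCGC was present in 0.514% of the 32851 RefSeq promoters of the same length, any of TTTGGCGC, TTTCGCGC and TTTCCCGC in 1.84%, the CCAAT box CCAAT, which the E2f2 window also holds, in 37.4%, and the MEF2 consensus in 3.19%. These matches describe the letters of the windows. The annotation of the count table starts E2f2 downstream of the printed window.

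**Figure D3:**
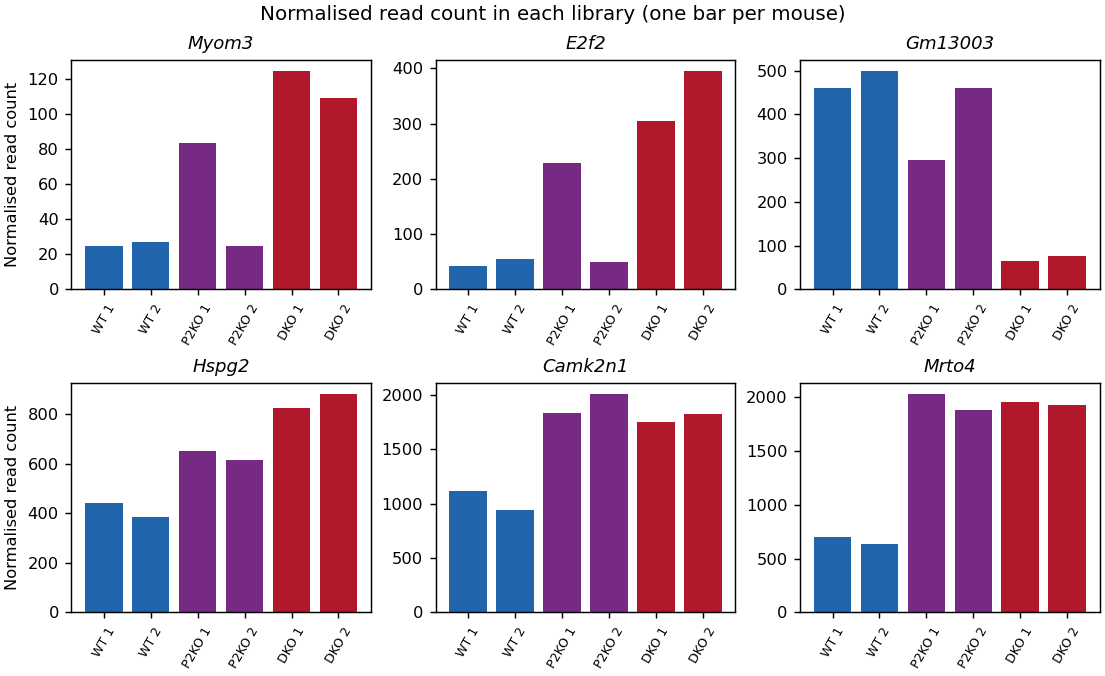
Normalised read count (y axis, linear from 0) of 6 members in each of the 6 libraries, 1 bar per mouse, coloured by genotype. Myom3 and E2f2 are high in P2KO 1 and both DKO libraries, Gm13003 is lowest in the DKO libraries, Hspg2 forms 3 levels, and Camk2n1 and Mrto4 are high in all 4 knockout libraries.

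Most members differed little between mice of a genotype. The median absolute difference in log2 CPM between the mice of a pair was 0.134 in WT, 0.144 in P2KO and 0.108 in DKO over the 77 members, beside 0.139, 0.126 and 0.124 over all genes tested. A difference over 1 was seen for 1 member in WT (4933427I22Rik, at 0 and 3 counts), for 3 in P2KO (E2f2, Myom3 and Rpl31-ps10) and for 0 in DKO, where the largest was 0.83 (Cela3b). Among all genes, 2.15%, 1.94% and 2.15% differed by more than 1 in the respective pairs. Per Mb along the window, this median was 0.076, 0.249, 0.112, 0.121 and 0.142 in the WT pair, 0.144, 0.217, 0.266, 0.094 and 0.127 in the P2KO pair and 0.144, 0.108, 0.100, 0.062 and 0.086 in the DKO pair. The WT pair exceeded the P2KO pair in 3 of the 5 windows.

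**Figure D4:**
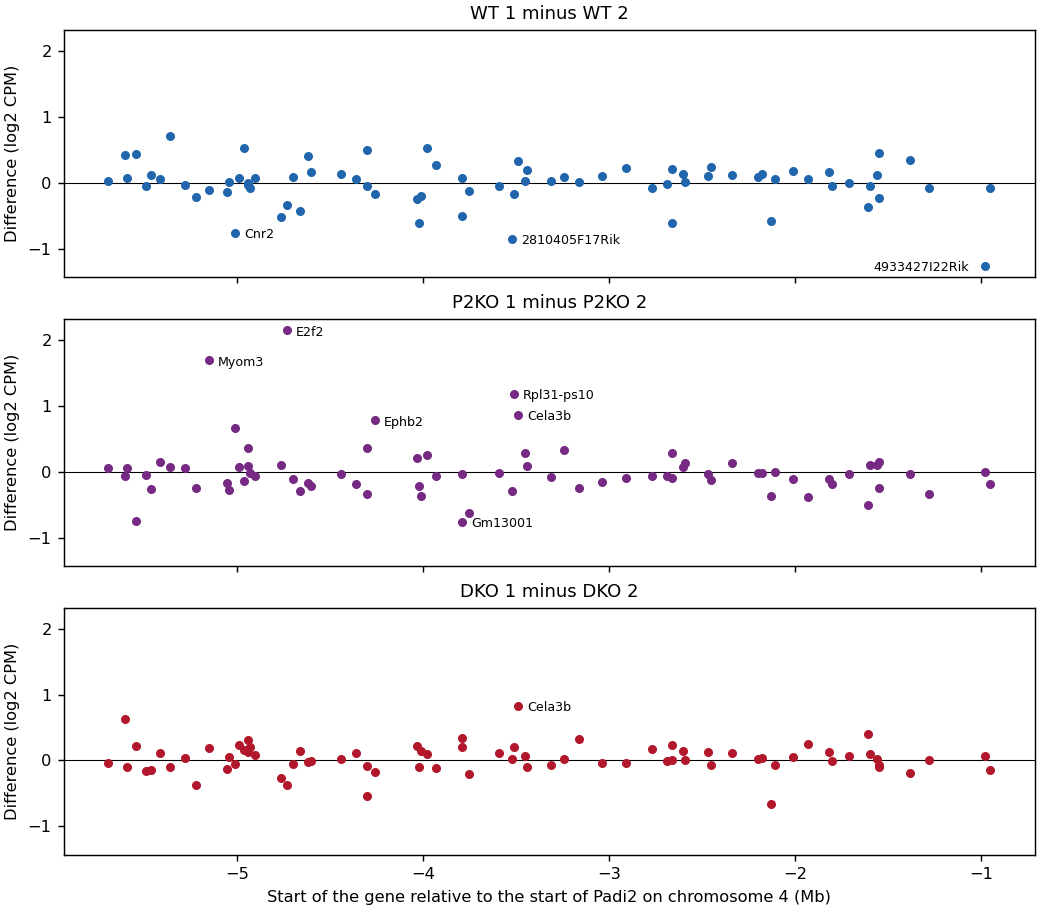
Difference in log2 CPM between mouse 1 and mouse 2 of WT, P2KO and DKO (y axis) for each of the 77 members tested, against the start of the gene relative to the start of Padi2 (x axis, Mb). In the P2KO pair, E2f2 (2.14) and Myom3 lie above the other members, and to the right of -3 Mb the difference farthest from 0 in that pair is -0.50 (Pqlc2).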

How the data were processed

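Testis RNA was poly(A)-selected, made into libraries with a directional kit and sequenced by the authors as paired reads. The authors trimmed the reads with Trim Galore, aligned them to GRCm38 with Ensembl annotation by STAR, and deposited 1 table of raw counts per gene with no normalization and no filter. The versions of those tools and the strand column taken from STAR are not given in the sources used here. All 55536 gene identifiers were found in GENCODE release M21, which gave positions, types and overlaps.

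From the deposited counts, TMM-scaled levels were computed and edgeR 4.0.16 (glmQLFit and glmQLFTest in R 4.3.3) was fitted to all 6 libraries over 20744 genes kept by filterByExpr at a minimum count of 10, with Benjamini-Hochberg adjustment and a threshold of 0.05. The fit had 3 residual degrees of freedom. A second fit had each P2KO library as its own group, with 2. The log2 CPM values used a prior count of 2. Depth limits low genes most, and for 4933427I22Rik, with 3 counts over both WT libraries, ratios of counts with exact intervals were given in place of the fitted fold. The members, the gene lists by role and the cell type markers were chosen with earlier results of these data known. Every member called in a comparison of genotypes or between the P2KO libraries is named, with the 2 highest of most role lists and those at the edges of the thresholds. Alternatives were RLE scaling, no filter, DESeq2 1.42.0, scaling from other chromosomes, the 2 genotypes alone, a replicate block, the spread of the first fit, another prior count and leaving out each library. Near-identical copies were transcripts aligned at 95% identity or more. Promoters are RefSeq's, with 66 of the 78 members matched. The scripts were tested on simulated data.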

Additional observations from a re-analysis of the deposited data

How the results depend on the processing

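No result changed direction under any alternative that was run. Of the counts of members called, leaving out 1 library moved P2KO against WT between 10 and 16 (13 with all), DKO against WT between 22 and 33 (28), DKO against P2KO between 3 and 15 (10), P2KO 1 against WT between 13 and 17 (13), P2KO 2 against WT between 9 and 14 (9), P2KO 1 against DKO between 2 and 10 (2), P2KO 2 against DKO between 8 and 13 (10) and P2KO 1 against P2KO 2 between 2 and 3 (2). The counts over all genes moved in the same fits as well, by a larger factor for P2KO against WT and for DKO against WT. The cause was not tested. Under DESeq2 the count was 5 for P2KO 1 against WT, 6 for P2KO 2 against DKO and 1 for P2KO 1 against P2KO 2. With no filter on low counts, P2KO 1 against DKO had 5. When the placement was limited to the 18 members with a log2 fold change of 0.5 or more either way, P2KO 1 was on the WT side for 3 and P2KO 2 for 7, over fewer members by construction.

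With the replicate number as a block, 11 members were called in P2KO against WT, 26 in DKO against WT and 9 in DKO against P2KO, and E2f2 in P2KO against WT had an adjusted p of 0.193. Libraries with the same number did not deviate together across genes (correlations of -0.06, 0.06 and -0.05). This cannot decide whether the numbers pair the mice, and the labels do not say. E2f2 and Nbl1 in P2KO against WT and Tcea3 and Zbtb40 in DKO against WT lost the call in this fit, under DESeq2 or with the 2 genotypes alone, and Eloa in DKO against P2KO in this fit (adjusted p = 0.0512) and under DESeq2 (0.0549). By DESeq2, Myom3, Nbl1 and Ubr4 in DKO against WT had adjusted p of 0.0575, 0.0596 and 0.313.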
